A study of Mus musculus with 6 samples.

Results

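The genes described here encode the subunits of voltage-gated sodium channels, voltage-gated calcium channels and the hyperpolarization-activated channels that carry the pacemaker current. They were taken by name from the deposited table of mouse atria, as every row whose gene name, read without regard to case, begins with Scn and a digit, with Cacna, Cacnb or Cacng, or with Hcn and a digit. The rule used no measured value and found 44 of 43432 genes. They are 10 sodium channel pores, 4 sodium channel beta subunits, 10 calcium channel pores, 4 alpha2delta subunits, 4 calcium channel beta subunits, 8 gamma subunits and 4 pacemaker channels. RNA came from right and left atrial tissue of wild-type C57/Bl6J mice that received a high fat diet (HFD) or a control diet for 10 weeks, starting at 6 weeks of age, with 3 samples per diet. Nothing beyond the sample numbers says that the samples of a diet are separate animals; they are called mice 1, 2 and 3 here, and p-values measure the spread between them. The labels disagree on the diets. The diets used here are those in the titles of the samples, which the table's column names share, whereas the treatment field gives the opposite diet for all 6 samples. Exchanging the diets would turn the sign of every difference below.

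Voltage-gated sodium channels open when the membrane depolarizes and carry the fast inward current of the upstroke, which sets the speed of conduction through the atrium. A pore-forming alpha subunit does this with the help of small beta subunits, which tune its gating and its place in the membrane. L-type calcium channels carry the calcium that triggers contraction, T-type channels open at more negative voltages and contribute to pacemaking, and both rely on the surrounding subunits to different degrees: alpha2delta and beta subunits bring high-voltage-activated pores to the membrane and adjust their gating. Pacemaker (HCN) channels open on hyperpolarization and carry the inward current of diastolic depolarization, best known from the sinoatrial node.

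Values are normalized counts, which are read counts divided by one size factor per sample. Reads on genes ranged from 15874251 to 28971508 per sample, so 3 reads, taken as the smallest signal, corresponded to between 2.05 and 3.41 normalized counts, counting error only. Control mouse 2 stood apart with the most reads, with a mitochondrial share of 30.7% (19.5% to 24.4% elsewhere), and with a sum of 17448 normalized counts over 5 ventricular myocyte markers against 6921 to 9918. The defining atrial genes were abundant in every sample, with Nppa, the atrial natriuretic peptide gene, between 171702 and 333975 normalized counts. Myl7, the atrial regulatory light chain, measured 31186, 27168 and 58765 in HFD mice 1, 2 and 3 and 56346 to 60190 in control mice. HFD mouse 3 thus lay among the controls for Myl7 and the other 2 HFD mice lay below them. Nppa measured 171702, 179008 and 333975 in HFD mice 1, 2 and 3 and 263703 to 305627 in control mice. HFD mice 1 and 2 were thus below the controls and HFD mouse 3 above them. The order was the same for the atrial myocyte markers Myl4 and Myh6, in part by narrow margins. Sln and Tnnt2 lay below the controls in every HFD mouse. In whole atria, fewer cells of a type and less RNA per cell cannot be told apart.

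Per kilobase of exon, the T-type pore Cacna1h had the highest level of the subunits described here. Cacna1h measured 435 ± 133 normalized counts per kilobase in HFD mice and 455 ± 39.2 in control mice (SD, n = 3). Averaged over the 6 mice, lower levels were those of Cacna2d2 (178 normalized counts per kilobase), Scn4b (153), Scn7a (126), Cacna2d1 (99.6), Cacna1c (93.8), Hcn2 (80.5) and Cacnb2 (70.0). The range over the 6 mice of Cacna1h did not overlap with that of Cacna2d2, and from Cacna2d2 on each gene named overlapped with the next. The order among them also depended on the length used: with the longest transcript in place of all exons, the level of Cacnb2, the main cardiac beta subunit of calcium channels, was 184 normalized counts per kilobase in place of 70.0. In most calcium channel families one member held most of the level: Cacna1c among L-type pores, Cacna1h among T-type pores, Cacna1a among the neuronal high-voltage pores and Cacng7 among gamma subunits.

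**Figure D1:**
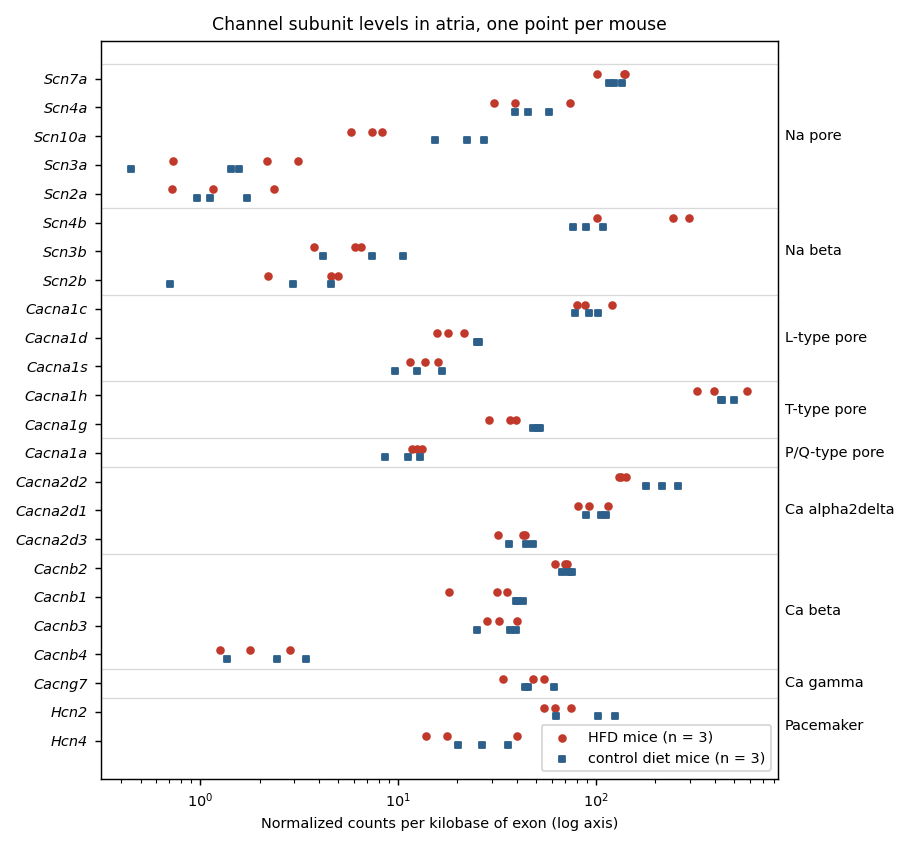
Normalized counts per kilobase of exon (log axis) of 24 of the 27 tested subunits, one point per mouse, circles for HFD and squares for control diet (n = 3 each), grouped by family. Cacna1h lies furthest to the right, and the Scn10a points of the 2 diets do not overlap.

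For testing, the mean over the 6 mice had to reach 10 normalized counts, which it did for 27 of the 44 genes. Of the 17 others, Cacng3 and Cacng5 had no read in any sample, which allows up to 3 reads in each. The remaining untested genes were Scn1a, Scn8a, Scn9a, Scn11a, Cacna1b, Cacna1e, Cacna1f, Cacna1i, Cacna2d4, Cacng1, Cacng2, Cacng4, Cacng6, Cacng8 and Hcn3, mostly channels known from brain, sensory neurons, retina or skeletal muscle. Hcn3 came closest to the limit, with a mean of 9.54 normalized counts. Scn1a, a brain sodium channel pore, had 0 reads in each of the 3 HFD mice and 7, 2 and 1 reads in control mice 1, 2 and 3, and Cacng2, a regulator of neuronal glutamate receptors, had 8, 3 and 6 reads in HFD mice and 1, 0 and 2 in control mice. Such low counts carry no test.

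The diets were compared to ask which channel subunits differ at the RNA level in atria of obese mice. With limma on log2(normalized count + 1) and Benjamini-Hochberg adjustment over all 15275 genes tested, 1 of the 27 subunits passed an adjusted p of 0.05, Scn10a, which was lower in HFD mice. Among all genes tested, 0.746% passed in either direction and 0.262% were lower. Before adjustment, 7 of the 27 had a p under 0.05, 6 lower (Scn10a, Cacna2d2, Cacna1g, Cacna1d, Cacnb1 and Hcn2) and 1 higher (Scn4b). The corresponding shares of all genes were 12.2% in either direction, 5.55% lower and 6.66% higher. In 5 of the 27 (Scn10a, Cacna2d2, Cacna1g, Cacna1d and Cacnb1) the values of the diets did not overlap, all 5 being lower in HFD mice; this was so for 18% of all genes in either direction, which is the share seen among the subunits. By sign, 17 subunits were lower and 10 higher, and the median log2 difference was −0.09, against 0.00 for all genes tested. With 3 mice per diet, the smallest two-sided p that an exact permutation test allows is 0.1.

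**Figure D2:**
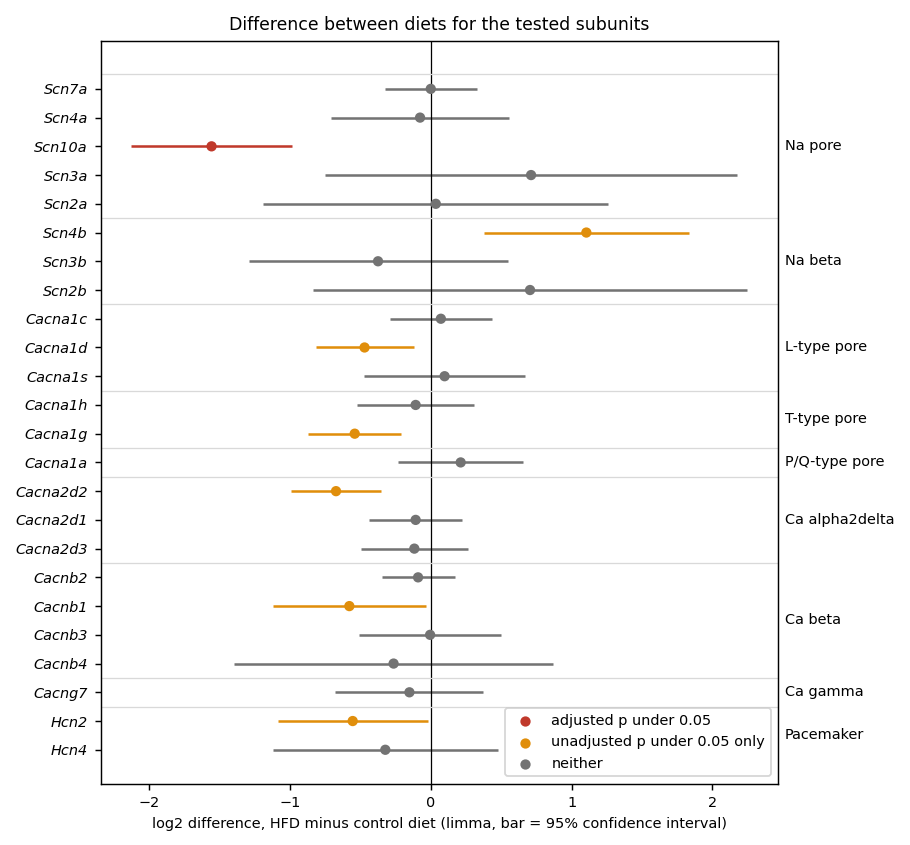
log2 difference between HFD and control diet of 24 of the 27 tested subunits, by family, with the 95% confidence interval from limma (3 mice per diet); red marks an adjusted p under 0.05 and orange an unadjusted p under 0.05 only. Scn10a at −1.56 is the single red point, and of the 6 orange points Scn4b alone lies to the right of 0.

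Scn10a encodes a sodium channel pore known from sensory neurons and from neurons of the heart, and its locus has been linked to cardiac conduction. It lies on chromosome 9 (GRCm38, 119608456 to 119719032, minus strand), where its annotated span is 34.7 kb from that of Scn11a. Its normalized counts were 46.2, 59.1 and 65.9 in HFD mice 1, 2 and 3 and 123, 177 and 218 in control mice 1, 2 and 3, from 46, 58 and 58 reads and 110.0, 259 and 199 reads. Every HFD mouse was thus below every control mouse. The log2 difference was −1.56 (SE 0.26, 95% confidence interval −2.13 to −0.99), a 2.94-fold lower level, with a limma adjusted p of 0.0280. Without control mouse 2 the limma adjusted p rose to 0.123, without control mouse 3 to 0.139, without HFD mouse 1 to 0.0738 and without HFD mouse 2 to 0.0882, while the difference stayed between −1.59 and −1.37; it was 0.174 when limma was run without a variance trend. Scn11a, a sensory neuron pore, had 5, 2 and 1 reads in HFD mice and 1, 0 and 3 in control mice, too few to compare.

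Because Scn10a is known from neurons, the marker genes of autonomic neurons and Schwann cells were read in the same samples. Of 7 neuronal markers tested, none passed the adjusted threshold and 1 had an unadjusted p under 0.05, Dbh, the enzyme that makes noradrenaline, with 57.3, 77.5 and 149 normalized counts in HFD mice and 241, 168 and 272 in control mice (log2 difference −1.34, limma adjusted p 0.0985). The summed level of the 9 neuronal markers ranged from 753 to 1714 in HFD mice and from 886 to 1398 in control mice and overlapped. Hand2 was the largest part of this sum in each mouse, at 450 to 702 in HFD mice and 473 to 631 in control mice. The sum therefore cannot show how the other markers stood. HFD mouse 1 had the highest sum, to which Hand2 (702), Stmn2 (355) and Prph (282) added most, and the lowest value of both Scn10a and Dbh. Among 7 Schwann cell markers, 3 were lower, Sox10 and Cnp among them, and 1 was higher, Mbp, at an unadjusted p under 0.05, none past the adjusted threshold, and their sums were 1281 to 1631 against 1522 to 1770. No neuronal or Schwann cell marker was at 0 in all 6 samples. The part of these cells in the Scn10a difference was not tested.

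The sodium channel pores Scn7a, Scn4a, Scn2a and Scn3a passed neither threshold. Scn7a, a sodium-sensing relative of the voltage-gated pores, measured 741 to 1030.0 normalized counts in HFD mice and 852 to 997 in control mice, with a log2 difference of 0.00 (95% confidence interval −0.33 to 0.33). Scn4a, the skeletal muscle pore, reached 519 in HFD mouse 2 and 216 to 409 in the 5 other mice (log2 difference −0.08, SE 0.29). Scn2a and Scn3a, brain pores, lay at 9.18 to 30.1 and 5.60 to 38.8 normalized counts in the 6 mice. At these low counts their standard errors were 0.55 and 0.66 on the log2 scale, so that changes of more than 1 log2 unit would remain within the intervals.

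Among the beta subunits of sodium channels, Scn4b had the largest difference, in the upward direction, and it rested on 2 of the 3 HFD mice. Scn4b (chromosome 9, 45138437 to 45154152, plus strand, 8.37 kb from Scn2b) encodes a subunit that is linked to the pore by a disulfide bond and shapes resurgent sodium current. Its normalized counts were 1228, 1479 and 508 in HFD mice 1, 2 and 3 and 442, 544 and 384 in control mice. HFD mice 1 and 2 were far above all controls, and HFD mouse 3 lay within the control range. The log2 difference was 1.105 (SE 0.33, 95% confidence interval 0.38 to 1.83) with an unadjusted limma p of 0.00673 and an adjusted p of 0.172. Without HFD mouse 3 the difference was 1.57 and the limma adjusted p 0.00129, and without any other single mouse the adjusted p was between 0.320 and 0.442. With the replicate number as a block the limma adjusted p was 0.0394. HFD mouse 3 was also the HFD mouse with Myl7 at the control level, and with Nppa, Myl4 and Myh6 above the controls. Whether the Scn4b values are related to this was not tested.

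The beta subunits Scn3b and Scn2b passed neither threshold. Scn3b lay between 20.4 and 58.2 normalized counts and Scn2b between 3.28 and 23.1 in the 6 mice. The log2 differences were −0.37 (SE 0.41) for Scn3b and 0.70 (SE 0.70) for Scn2b, with overlap between the diets for both. Scn4b per kilobase was 46.4 to 64.5 times Scn2b in HFD mice and 19.4 to 109 times in control mice, also with overlap.

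**Figure D3:**
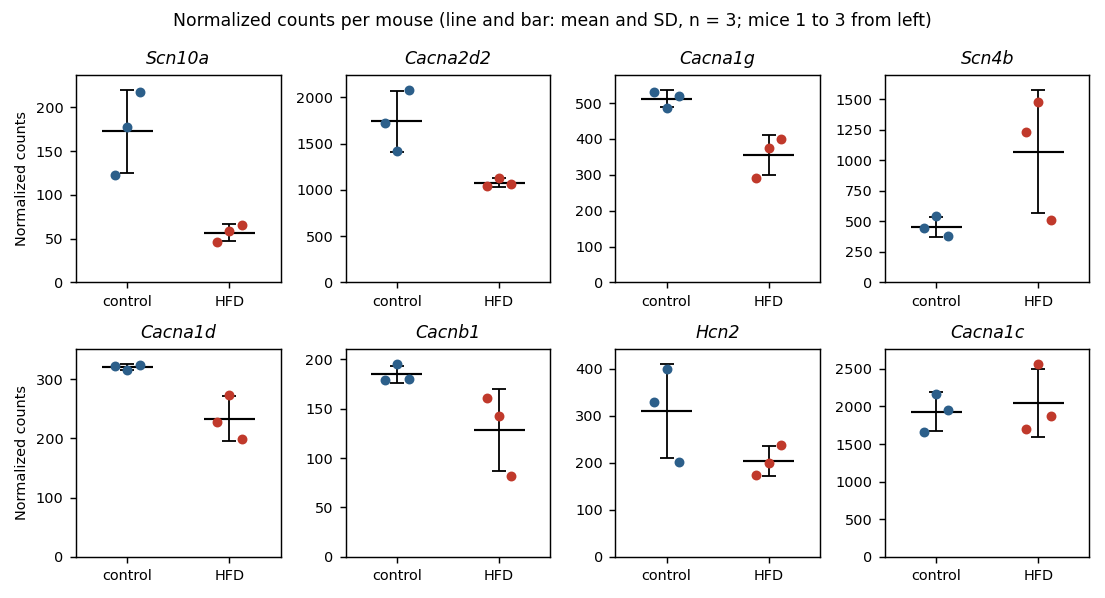
Normalized counts of the 7 subunits with an unadjusted p under 0.05 and of Cacna1c in each mouse, control diet in blue and HFD in red, with the mean and SD (n = 3 per diet). The diets are separate for Scn10a, Cacna2d2, Cacna1g, Cacna1d and Cacnb1, and for Scn4b HFD mouse 3 lies beside the controls.

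Of the L-type calcium channel pores, Cacna1c was at the same level in both diets within the error and Cacna1d was lower in HFD mice before adjustment. Cacna1c, the main L-type pore of the working myocardium (chromosome 6, 118587240 to 119196418, minus strand), measured 1702, 2562 and 1874 normalized counts in HFD mice and 1656, 2169.5 and 1959 in control mice. Its values overlapped, and the log2 difference was 0.07 (95% confidence interval −0.29 to 0.44; limma adjusted p 0.910). Cacna1d, the L-type pore of atrial and sinoatrial cells that opens at more negative voltages (chromosome 14, 30039949 to 30491156, minus strand), measured 227, 273 and 199 in HFD mice and 321, 316 and 325 in control mice. All HFD values lay below the narrow control range. The log2 difference was −0.47 (SE 0.16, 95% confidence interval −0.82 to −0.12), with an unadjusted limma p of 0.0130 and an adjusted p of 0.238.

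Relative to Cacna1c per kilobase, Cacna1d was 0.178 to 0.224 in HFD mice and 0.244 to 0.326 in control mice, without overlap. The gene overlaps Dcp1a and Chdh on the opposite strand, which averaged 294 and 27.2 normalized counts in HFD mice and 282 and 10.3 in control mice; whether strand was used in counting is not given in the sources used here. Cacna1s, the L-type pore of skeletal muscle, was low at 63.4 to 110 normalized counts in the 6 mice and overlapped between diets (log2 difference 0.10, SE 0.26). Of 8 skeletal muscle markers, 4 were tested and none passed either threshold. The sums of the 8, 9396 to 15286 normalized counts in HFD mice and 11946 to 15905 in control mice, overlapped. Most of each sum was Ckm, at 8967 to 14706 in HFD mice and 11550 to 15059 in control mice. The overlap of the sums is therefore mainly that of Ckm and cannot show how the other markers stood. The myosin genes Myh1, Myh2 and Myh4 lay between 0 and 8.21, Actn3 between 16.1 and 36.1 and Tnnt3 between 7.14 and 23.5 in the 6 mice. No marker was at 0 in all samples, and the part of skeletal muscle in the Cacna1s values was not tested.

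Of the T-type pores, the abundant Cacna1h overlapped between diets and the less abundant Cacna1g did not. Cacna1h (chromosome 17, 25374285 to 25433783, minus strand) measured 3181, 5698 and 3853 normalized counts in HFD mice and 4212, 4239.7 and 4889 in control mice, with a log2 difference of −0.11 (95% confidence interval −0.52 to 0.31). Cacna1g, the T-type pore best known from the adult sinoatrial and atrioventricular nodes (chromosome 11, 94408391 to 94474198, minus strand), measured 292, 374 and 399 in HFD mice and 532, 486 and 520.3 in control mice. Each HFD mouse was below each control mouse. For Cacna1g the log2 difference was −0.54 (SE 0.15, 95% confidence interval −0.87 to −0.21), with an unadjusted limma p of 0.00430 and an adjusted p of 0.141. Cacna1g per kilobase was 0.0633 to 0.0997 of Cacna1h in HFD mice and 0.102 to 0.122 in control mice. The single tested pore of the neuronal high-voltage class, Cacna1a, measured 135, 151 and 142 normalized counts in HFD mice and 128, 147 and 98.4 in control mice, with overlap (log2 difference 0.21, SE 0.20).

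The alpha2delta subunits, extracellular proteins that carry calcium channel pores to the membrane and include the targets of gabapentin, were led by Cacna2d2 and Cacna2d1. Cacna2d2 (chromosome 9, 107399612 to 107529343, plus strand) measured 1043, 1132 and 1067 normalized counts in HFD mice and 1728, 1420.1 and 2081 in control mice. The HFD values were close together and all below the controls. The log2 difference was −0.67 (SE 0.14, 95% confidence interval −0.99 to −0.36), a 1.59-fold lower level, with an unadjusted limma p of 0.000744 and an adjusted p of 0.0657, just outside the threshold. DESeq2 on the recovered reads gave it an adjusted p of 0.00129; edgeR gave one of 0.0696.

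Cacna2d1, the alpha2delta subunit usually ascribed to cardiac L-type channels, measured 1144, 1424 and 1013 normalized counts in HFD mice and 1110, 1404 and 1325 in control mice, and overlapped (log2 difference −0.11, 95% confidence interval −0.44 to 0.22). Cacna2d3 lay between 278 and 418 in the 6 mice, with a log2 difference of −0.12 (SE 0.17), and overlaps Lrtm1 on the opposite strand. The Cacna2d2 share of the alpha2delta level per kilobase was 47.3% to 54.1% in HFD mice and 54.5% to 62.9% in control mice. Relative to Cacna2d1 per kilobase, Cacna2d2 was 1.24 to 1.64 in HFD mice and 1.58 to 2.45 in control mice, with overlap.

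Of the intracellular calcium channel beta subunits, Cacnb2, which binds the L-type pore in heart muscle, was the most tightly measured of all subunits, at 922, 819 and 952 normalized counts in HFD mice and 892, 964 and 1008 in control mice (log2 difference −0.09, 95% confidence interval −0.35 to 0.17). Cacnb1, the beta subunit of skeletal muscle channels, measured 161, 143 and 81.8 in HFD mice and 179, 195 and 180.4 in control mice. HFD mouse 3 was the lowest, and no HFD mouse reached the controls. The Cacnb1 log2 difference was −0.58 (SE 0.25) with an unadjusted limma p of 0.0397 and an adjusted p of 0.378. Without HFD mouse 3 it was −0.28, with an unadjusted limma p of 0.142. The unadjusted p of Cacnb1 was under 0.05 in 7 of 15 alternative fits. Cacnb3 (log2 difference 0.00, SE 0.23) and Cacnb4 (−0.26, SE 0.51) overlapped between the diets. Cacng7, the one gamma subunit tested, measured 134, 117 and 82.9 in HFD mice and 150.0, 107 and 111 in control mice, with overlap (log2 difference −0.15, SE 0.24).

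Of the pacemaker channels, Hcn2 was lower in HFD mice before adjustment, and Hcn4 passed neither threshold. Hcn2, the fast-activating isoform of working myocytes and brain (chromosome 10, 79716634 to 79736108, plus strand), measured 175, 199.9 and 239 normalized counts in HFD mice and 329, 398 and 202 in control mice. Control mouse 3 fell within the HFD range. For Hcn2 the log2 difference was −0.55 (SE 0.24, 95% confidence interval −1.09 to −0.02), with an unadjusted limma p of 0.0428 and an adjusted p of 0.385. The unadjusted p of Hcn2 was under 0.05 in 10 of 15 alternative fits. Without control mouse 2, which had the highest value, the log2 difference was −0.35, with an unadjusted limma p of 0.191. The unadjusted limma p was 0.0834 to 0.126 without HFD mouse 1, HFD mouse 2 or control mouse 1. It was 0.0236 without HFD mouse 3 and 0.00204 without control mouse 3.

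Hcn4, the main pacemaker channel of the sinoatrial node (chromosome 9, 58823512 to 58860955, plus strand), measured 84.4, 244 and 108 in HFD mice and 162, 123 and 220 in control mice. Its spread among HFD mice was wider than the difference between diets (log2 difference −0.32, SE 0.36, limma adjusted p 0.777). Hcn2 per kilobase was 1.57 to 4.23 times Hcn4 in HFD mice and 1.76 to 6.23 times in control mice, with overlap.

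Since node tissue is a small part of an atrial sample, 8 markers of sinoatrial node myocytes were read beside Hcn4, Cacna1d and Cacna1g. None passed the adjusted threshold. Vsnl1 and Smoc2 were lower in HFD mice at an unadjusted limma p under 0.05, without overlap, as were Cacna1d and Cacna1g. Vsnl1 measured 47.2, 72.4 and 34.1 normalized counts in HFD mice and 84.0, 82.8 and 110 in control mice. Smoc2 measured 517, 464 and 436 against 675, 714 and 634. By sign, Isl1, Rgs6 and Cpne5 were also lower, and Shox2, Tbx3 and Tbx18 were higher. Tbx18 did not overlap between the diets either, in the upward direction. It measured 170, 207 and 165 in HFD mice and 144, 142 and 153 in control mice (unadjusted limma p 0.116). Among all genes tested, the diets did not overlap for 18% in either direction. Shox2, a transcription factor of the node, measured 313, 345 and 186 normalized counts in HFD mice 1, 2 and 3 and 214 to 253 in control mice, and Tbx3, another, 475, 610 and 268 against 330 to 437. HFD mouse 2 had the highest values of both and of Hcn4, whereas HFD mouse 1 exceeded every control mouse for both and had the lowest Hcn4 value. The sums of the 8 markers, 2687 to 3673 in HFD mice and 3210 to 3833 in control mice, overlapped, and no marker was at 0 in all samples. The part of node tissue in these channel values was not tested.

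The make-up of the calcium channel families was taken per kilobase within each mouse. The Cacna1c share of L-type pores was 70.1% to 77.4% in HFD mice and 64.9% to 73.1% in control mice, and that of Cacna1d 13.5% to 15.7% against 17.8% to 21.2%. Cacna1h held 89.1% to 94.0% of T-type pores in the 6 mice. Cacnb2 led the beta subunits with 47.5% to 58.2% in HFD mice and 45.6% to 53.1% in control mice, and Cacnb1 held 14.6% to 25.3% against 26.7% to 27.7%. These shares come from the same values as the tests and are descriptions.

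**Figure D4:**
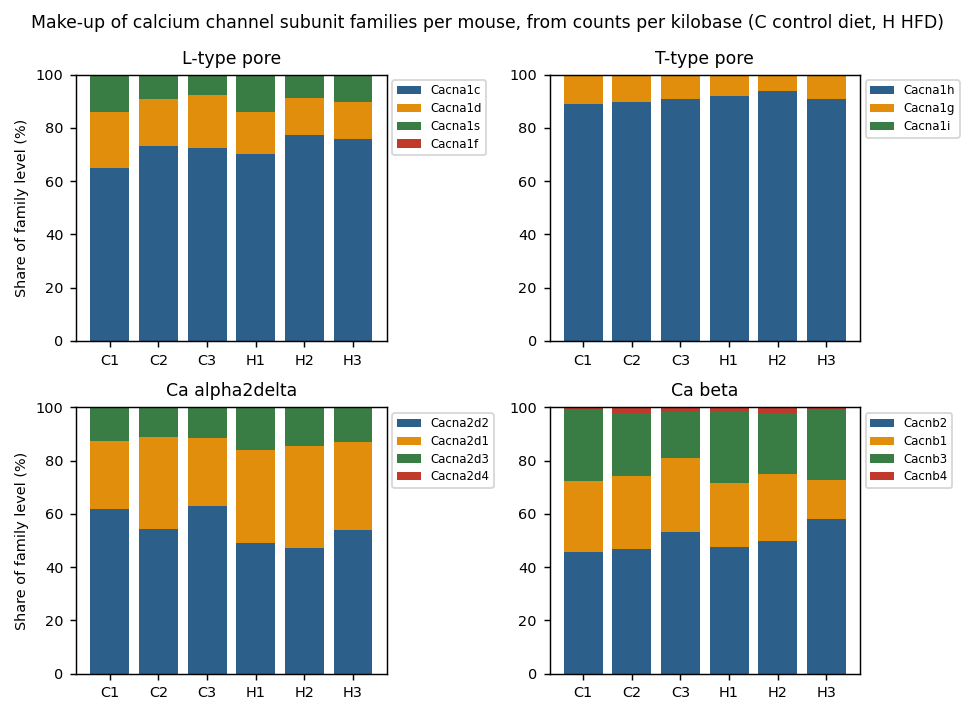
Share (%) of each subunit in the summed normalized counts per kilobase of its family, one stacked bar per mouse (C1 to C3 control diet, H1 to H3 HFD), for 4 calcium channel families. The Cacna1d band is thinner in the HFD mice (13.5% to 15.7%) than in the control mice (17.8% to 21.2%).

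Channel partners and regulators were read from 3 lists. Of 17 genes that bind or modify sodium channels, 1 passed the adjusted threshold (0.746% of all genes did) and was lower, Fgf13, a fibroblast growth factor homologue that binds the tail of the pore and adjusts inactivation. Fgf13 measured 410 normalized counts in HFD mouse 1, 376 in mouse 2 and 413 in mouse 3, against 574, 670.0 and 724 in control mice, without overlap. The log2 difference was −0.71 (SE 0.13) with a limma adjusted p of 0.0459. Its limma adjusted p was 0.0280 without HFD mouse 3, 0.10 without HFD mouse 1, 0.147 without HFD mouse 2, and 0.0758, 0.189 and 0.166 without control mice 1, 2 and 3. It was 0.0549 with scaling to the non-mitochondrial total and 0.178 without a variance trend, and Fgf13 passed the adjusted threshold in 7 of the 15 alternatives.

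At an unadjusted p under 0.05, 3 sodium channel partners were higher: Pkp2, a desmosome protein (log2 difference 0.37, limma adjusted p 0.250), Dlg1, a scaffold (0.31, adjusted p 0.365), and Sgk1, the kinase that is known to regulate sodium channels (0.28, adjusted p 0.357). Sgk1 measured 864, 871 and 988 normalized counts in HFD mice and 719, 784 and 730.1 in control mice, so that the diets did not overlap. Nedd4l and Nedd4, ubiquitin ligases that take sodium channels out of the membrane, had log2 differences of 0.09 and 0.18 and passed neither threshold.

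Of 14 tested calcium channel partners, none passed the adjusted threshold with limma, and 2 were higher and 2 lower at an unadjusted p under 0.05. The higher ones were Rrad and Gem, small GTPases known to inhibit L-type channels through the beta subunit. Rrad measured 6055, 5366 and 7498 normalized counts in HFD mice and 4475, 3514 and 4197 in control mice, without overlap (log2 difference 0.63, SE 0.15; limma adjusted p 0.0874). Gem measured 326, 198 and 203 against 141, 168 and 131, also without overlap (log2 difference 0.69, SE 0.22; limma adjusted p 0.211).

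The lower calcium channel partners were anchoring proteins that place protein kinase A at the channel. Akap7 measured 370, 339 and 301 normalized counts in HFD mice and 432, 439 and 513 in control mice (log2 difference −0.46, limma adjusted p 0.198), and Akap5 20.1, 6.12 and 12.5 against 44.8, 37.0 and 26.2 (log2 difference −1.52, SE 0.50; limma adjusted p 0.234). The latter rests on low counts. Of 8 tested pacemaker channel partners, none passed the adjusted threshold. Flna was higher (log2 difference 0.32) and Mrvi1 lower (−0.38, limma adjusted p 0.336) at an unadjusted p under 0.05.

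The calls on the subunits depended on the fit. Over the 15 alternatives to the limma fit, Scn10a kept its direction in each and passed an adjusted p of 0.05 in 10, with log2 differences from −1.78 to −1.37. Cacna2d2 passed in 1, Scn4b in 2 and Cacna1g in none, each keeping its direction in every alternative. Leaving out control mouse 2, the deepest sample, left 14 of all genes called and none of the subunits. This was not particular to that mouse. Without control mouse 3, HFD mouse 2 or HFD mouse 1, 19, 24 and 52 genes were called, and again none of the subunits.

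**Figure D5:**
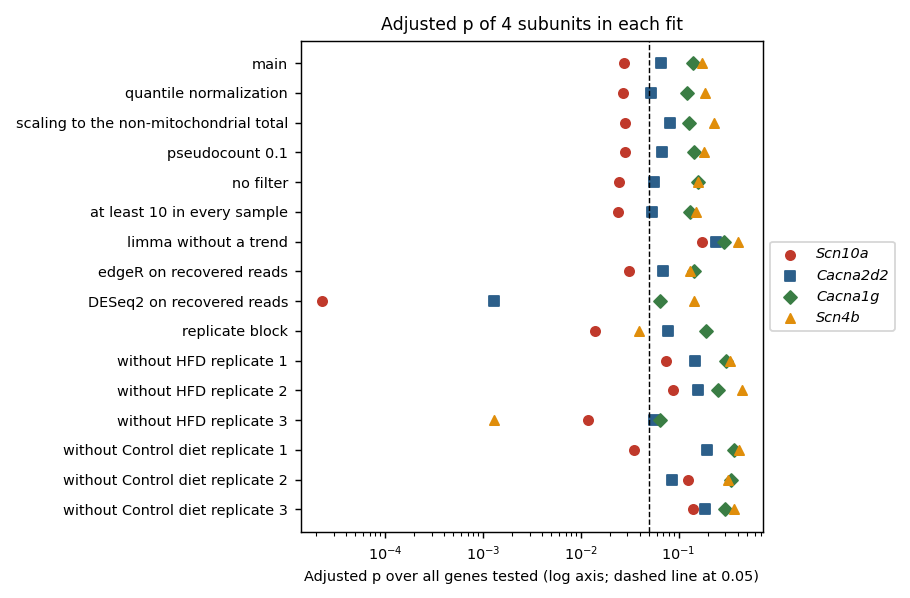
Adjusted p (log axis, dashed line at 0.05) of Scn10a, Cacna2d2, Cacna1g and Scn4b in the limma fit of all 6 mice (main) and in 15 alternatives, one row each. Scn10a lies left of the line in the main fit and in 10 alternatives, and Scn4b in the replicate block fit and without HFD replicate 3.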

How the data were processed

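Atrial RNA of 3 mice per diet was extracted with a column kit and made into directional libraries. The authors aligned the reads to GRCm38 with STAR, quantified Ensembl genes with Salmon and ran DESeq2 (submitters' processing notes and methods). The deposited signal is the number of reads of a gene after division by the sample's DESeq2 size factor, and 100% of the values were whole multiples of 1 read (tolerance 0.01). Whether strand was used in counting is not given in the sources used here. The deposited table also holds the authors' own comparison of the diets (log2 fold change, standard error, p-values, Wald statistic, ranking metric), which was not used.

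Groups followed the sample titles. All 6 samples were compared with limma 3.58.1 (R 4.3.3, variance trend) on log2(normalized count + 1) with a minimum mean of 10, with Benjamini-Hochberg adjustment over all 15275 genes tested; a fold change on this scale understates the change of low genes. The test was tested on simulated data. The design provided for normalized values or counts, and the recovered reads were tested with edgeR 4.0.16 and DESeq2 1.42.0 as alternatives. Other alternatives were quantile normalization, scaling without mitochondrial genes, a pseudocount of 0.1, other filters, no trend, a replicate block, each mouse left out in turn and, for levels, the longest transcript. Lengths and neighbours came from GENCODE M21, which named 42462 of 43432 gene identifiers; coordinates are those of the deposited table or, where neighbours are given, of the same build. One row without a gene name was left out.

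The channel genes, the partner and marker lists and the tests were chosen with earlier results of these data known. Values per mouse are given for subunits with an unadjusted p under 0.05, for a fixed set that includes Cacna1c, Cacna1d, Cacna1g, Cacna1h, Hcn2 and Hcn4, and for the member of each family with the highest level per kilobase; partners are named if past the adjusted threshold, then by the smallest unadjusted p under 0.05 (at most 8), with Sgk1. Nedd4l, Nedd4, Flna and the marker genes were chosen after their values were seen. Some genes of these families and lists are counted but not reported here by name.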

Additional observations from a re-analysis of the deposited data

How the results depend on the processing

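The count of all genes called moved from 114 to 0 with limma without a variance trend (1717 at an unadjusted p under 0.05) and to 470 with DESeq2, which called 292 higher and 178 lower; edgeR called 87. Leaving out single mice gave 14 to 342. Of the subunits, 1 was called in the limma fit, 0 without the trend (5 at an unadjusted p under 0.05) and 2 with DESeq2 (Scn10a and Cacna2d2), and leaving out single mice gave 0 to 2. The replicate numbers gave little sign of pairing. The correlations of the deviations of same-numbered mice were 0.12, −0.03 and −0.0039 for numbers 1, 2 and 3. Only HFD mouse 1 correlated best with the control mouse of its own number. These values cannot show whether the samples were processed in pairs. With the replicate block 157 genes and 2 subunits (Scn10a and Scn4b) were called, and Fgf13 had a limma adjusted p of 0.0650. The other limits are depth and size: subunits under about 40 normalized counts had standard errors of 0.41 or more on the log2 scale.

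Subunits whose direction turned had log2 differences smaller than their standard errors. With edgeR and DESeq2 Scn4a was at 0.0028 and 0.0051, and Scn7a was at −0.046 with quantile normalization and −0.0042 with scaling to the non-mitochondrial total. Leaving out single mice gave −0.44 to 0.19 for Scn4a, −0.083 to 0.15 for Scn7a, −0.40 to 0.41 for Scn2a, −0.10 to 0.19 for Cacna1c, −0.093 to 0.30 for Cacna1s, −0.34 to 0.079 for Cacna1h, −0.24 to 0.0037 for Cacna2d1, −0.23 to 0.032 for Cacna2d3, −0.21 to 0.12 for Cacnb3, −0.60 to 0.025 for Cacnb4 and −0.30 to 0.045 for Cacng7. The cause was not tested.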

Other observations

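Genes outside the channel families were read in the same samples. Of 3 tested markers of brown adipocytes, 2 passed the adjusted threshold and were higher in HFD mice. Ucp1, the uncoupling protein of brown fat, measured 706, 173 and 745 normalized counts in HFD mice and 86.2, 5.48 and 15.3 in control mice (log2 difference 4.43, limma adjusted p 0.0446). Cidea, a lipid droplet protein, measured 419, 268 and 391 against 183, 149 and 130.1 (log2 difference 1.21, limma adjusted p 0.0310). Of 7 white adipocyte markers none passed, and Fabp4 was higher at an unadjusted p under 0.05 (log2 difference 0.81, limma adjusted p 0.108). No adipocyte marker was at 0 in all samples.

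Among 13 clock genes, 1 passed the adjusted threshold, Dbp, a transcription factor whose RNA cycles over the day, with 171, 241 and 154 normalized counts in HFD mice and 499, 547 and 491 in control mice (log2 difference −1.46, limma adjusted p 0.0094). At an unadjusted p under 0.05, 2 clock genes were higher and 4 lower. Tef and Hlf, relatives of Dbp, had log2 differences of −0.76 (limma adjusted p 0.0668) and −0.83 (0.0616), Per3 −0.74 (0.0675) and Arntl 0.60 (0.0670). The time of day of tissue collection is not given in the sources used here, and whether these genes are related to the channel values was not tested.

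The endothelial marker Pecam1 measured 6153, 6259 and 5340 normalized counts in HFD mice and 4106, 3842 and 4019 in control mice (log2 difference 0.57, limma adjusted p 0.0504), while Cdh5, Kdr, Tie1 and Tek passed neither threshold. Of 5 macrophage markers, Mrc1 and Lyz2 were higher at an unadjusted p under 0.05 and none passed the adjusted threshold. None of 5 fibroblast, 6 smooth muscle and pericyte and 4 tested skeletal muscle markers passed either threshold. Of 6 atrial myocyte markers, Myl7, Sln and Tnnt2 were lower at an unadjusted p under 0.05, and of 5 ventricular myocyte markers Myh7, none past the adjusted threshold.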
